A study of Mus musculus with 6 samples.

Results

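The cytosolic ribosomal protein genes of the mouse were taken by name, as the protein-coding genes whose symbols start with Rpl or Rps, leaving out the Rps6k kinases, *Rps19bp1* and symbols holding "-ps". This gave 85 of 21938 protein-coding genes on the assembled chromosomes of GRCm38, the assembly behind mm10. Of these, 46 encode large subunit proteins, 31 encode small subunit proteins, and 8 carry paralog-type names (*Rpl3l*, *Rpl7l1*, *Rpl10l*, *Rpl22l1*, *Rpl36al*, *Rpl39l*, *Rps27l* and *Rps27rt*). The study profiled H3K56ac, histone H3 acetylated at lysine 56, by ChIP-seq in V6.5, a mouse embryonic stem cell (mESC) line. The cells were kept undifferentiated with LIF on feeder cells and carried, by lentivirus, either a scrambled shRNA (Scramble) or shRNA against *Sirt6* (Sirt6 KD). Each group had 2 H3K56ac libraries and 1 library of input DNA, 6 libraries in all. The extent of the knockdown was not measured here, and chromatin of feeder cells may be present in every library. The deposited file held 1 merged set of 11106 peak positions with no value per library, so the groups could not be compared and the depth behind a peak is unknown. The paper lists more H3K56ac peaks in each Sirt6 KD library than in each Scramble library. A merged peak, or part of its width, may therefore come from Sirt6 KD cells alone.

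The cytosolic ribosome consists of a small subunit that reads the mRNA and a large subunit that joins amino acids, and its proteins are made in near equal amounts in every growing cell. Their genes are short, are transcribed at high rates and often start within a run of pyrimidines, the 5′ terminal oligopyrimidine tract through which growth signals control translation of these mRNAs. Acetylation of H3K56 is found at promoters and enhancers of active genes, and SIRT6 is a deacetylase of this residue.

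H3K56ac peaks stood at most of these genes, and they were wide and lay mostly inside the transcribed part. A gene was counted as having a promoter peak where the midpoint of a peak lay within 1 kb of any annotated transcription start site (TSS) of that gene. This held for 69 of 85 ribosomal protein genes, or 81.2% (Wilson 95% interval 71.6 to 88.1), against 33.9% of all protein-coding genes and 57.6% of those with a CpG-rich 5′ end, meaning an observed to expected CpG ratio of at least 0.6 within 500 bp of it. The median promoter peak was 2896 bp wide (binomial 95% interval of the median 2610 to 3413), against 1269 bp (1234 to 1307) over all 7429 genes with a promoter peak. Its midpoint lay at a median of 632 bp (525 to 736.5) downstream of the principal TSS, against 250.5 bp (233.5 to 263.5). The principal TSS is the one start per gene chosen from the annotation by its principal transcript. Intervals in parentheses after shares and medians are these 2 kinds throughout, and they cover counting error over genes and not the spread between libraries.

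Only 11 members had no peak base within 1 kb of any of their TSS. Of these, 4 had paralog-type names and 7 encode proteins of the ribosome of most cells, among them *Rps21*, *Rps29*, *Rpl13a*, *Rpl15* and *Rpl41*. The 100 bases around the principal TSS of these 5 are shown to compare these unmarked starts with marked ones, read in the direction of transcription from 70 bases before the TSS to base 30 of the transcript on GRCm38. Capitals mark the longest run of pyrimidines (C or T) in the window.
Rps21, chr2:180257307-180257406, plus strand: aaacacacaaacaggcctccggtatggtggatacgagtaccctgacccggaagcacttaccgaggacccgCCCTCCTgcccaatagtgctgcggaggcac
Rps29, chr12:69159157-69159256, minus strand: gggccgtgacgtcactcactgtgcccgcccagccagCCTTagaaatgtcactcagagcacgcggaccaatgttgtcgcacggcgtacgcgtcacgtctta
Rpl13a, chr7:45128732-45128831, minus strand: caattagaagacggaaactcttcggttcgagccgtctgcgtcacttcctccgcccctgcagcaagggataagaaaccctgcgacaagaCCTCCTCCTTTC
Rpl15, chr14:18271038-18271137, minus strand: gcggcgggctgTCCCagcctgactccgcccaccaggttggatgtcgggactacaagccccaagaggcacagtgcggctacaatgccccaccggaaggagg
Rpl41, chr10:128549276-128549375, minus strand: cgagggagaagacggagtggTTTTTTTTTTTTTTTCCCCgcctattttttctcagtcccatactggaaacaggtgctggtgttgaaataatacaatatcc

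The second set holds 6 starts that lay inside their peaks, chosen after their values were seen. The peaks ranged from 2593 bp at *Rps27* to 5922 bp at *Rps2*, and those of *Rps27*, *Rpl8* and *Rpl37* covered the whole gene.
Rps2, chr17:24719993-24720092, plus strand: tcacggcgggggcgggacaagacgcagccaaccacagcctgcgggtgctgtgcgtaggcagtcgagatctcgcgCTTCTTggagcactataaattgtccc
Rps27, chr3:90213622-90213721, minus strand: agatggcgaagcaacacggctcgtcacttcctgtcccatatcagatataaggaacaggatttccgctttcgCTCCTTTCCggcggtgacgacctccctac
Rps6, chr4:86857383-86857482, minus strand: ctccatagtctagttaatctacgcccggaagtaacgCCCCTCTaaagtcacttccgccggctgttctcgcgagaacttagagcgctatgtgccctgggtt
Rpl4, chr9:64173305-64173404, plus strand: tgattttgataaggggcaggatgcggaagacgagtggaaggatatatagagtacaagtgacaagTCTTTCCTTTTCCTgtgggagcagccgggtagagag
Rpl8, chr15:76904008-76904107, plus strand: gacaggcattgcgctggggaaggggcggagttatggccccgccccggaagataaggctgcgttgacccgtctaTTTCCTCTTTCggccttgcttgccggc
Rpl37, chr15:5116575-5116674, plus strand: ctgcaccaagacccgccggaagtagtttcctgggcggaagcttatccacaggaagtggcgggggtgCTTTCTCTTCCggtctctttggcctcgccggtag

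A run of 8 or more pyrimidines was present in this window in 46 of 85 members (54.1%), against 35.9% of all protein-coding genes and 31.9% of CpG-rich ones. The longest run had a median of 8 bases in members and of 6 in all genes. Among the 5 unmarked starts shown it ranged from 4 bases in *Rps29* and *Rpl15* to 19 bases in *Rpl41*. The run of *Rpl41* lay wholly before the annotated TSS, and that of *Rpl13a* began after it, so these runs are not a tract at the first base of the mRNA. That of *Rps21*, also unmarked, began at base 1 of the transcript, while that of the marked *Rps6* lay wholly before the TSS. Runs anywhere in the window entered the share of 54.1%, so it is not a share of genes with a tract at the start. The marked *Rps2* had a longest run of 6 bases.

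Fixed letter strings were searched on both strands of the reference from 250 bases before to 50 bases after the principal TSS. CCGGAAG, the core bound by ETS factors, was found in 26 members (30.6%), in 11.2% of all genes and in 18.7% of CpG-rich genes. It is visible in the windows of *Rps21* and *Rpl15* above, and 5 of the 11 members without a peak base held it. CTCGCGAG, a palindrome of the kind bound by ZBTB33, was found in 9 members (10.6%), in 1.19% of all genes and in 2.23% of CpG-rich ones. ANATGGCG, the core of the YY1 site, was found in 10 members (11.8%), in 4.46% of all genes and in 7.47% of CpG-rich ones. TATAAA was found in 11.8% of members, in 12.6% of all genes and in 6.49% of CpG-rich ones. CACGTG was found in 10.6% of members, 7.72% of all genes and 10.8% of CpG-rich ones, and GCGCATGCG (NRF1) in 2.35%, 2.51% and 3.98%. GGGCGG, the SP1 core, was present in 51.8% of members, above the 45.3% of all genes and below the 69.8% of CpG-rich genes. These are matches of letters, several strings can stand in the same promoter, and their part in the peaks was not tested.

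Promoter peaks stood at 24 of 31 small subunit genes (77.4%, 60.2 to 88.6) and at 41 of 46 large subunit genes (89.1%, 77.0 to 95.3), and these intervals overlap. Of the 8 paralog-type names 4 had one (50.0%, 21.5 to 78.5). Without them the share was 65 of 77 (84.4%, 74.7 to 90.9). Where it sufficed that part of a peak came within 1 kb, in place of its midpoint, the count was 74 of 85 (87.1%, 78.3 to 92.6), against 35.7% of all genes and 60.4% of CpG-rich genes. The principal TSS itself lay inside a peak in 62 members (72.9%, 62.7 to 81.2), against 20.0% of all genes and 34.8% of CpG-rich ones. Ribosomal protein genes have more annotated starts than other genes, with a median of 6 against 3, which gives a midpoint more chances to fall near one. With the principal TSS as the only start, 55 members (64.7%, 54.1 to 74.0) had a promoter peak, against 30.4% of all genes and 52.8% of CpG-rich genes.

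The 69 promoter peaks were 69 different peaks, so no pair of members was counted on the same one. A peak of at least 3 kb was found at 33 of 69 marked members (47.8%), against 7.70% of all genes with a promoter peak. Small subunit genes had a median width of 3211.5 bp (2593 to 3573) and large subunit genes of 2833 bp (2536 to 3418), while the 4 marked paralogs had a median of 2123.5 bp and no peak of 3 kb. The quartiles over all marked members were 2285 and 3538 bp.

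**Figure D1:**
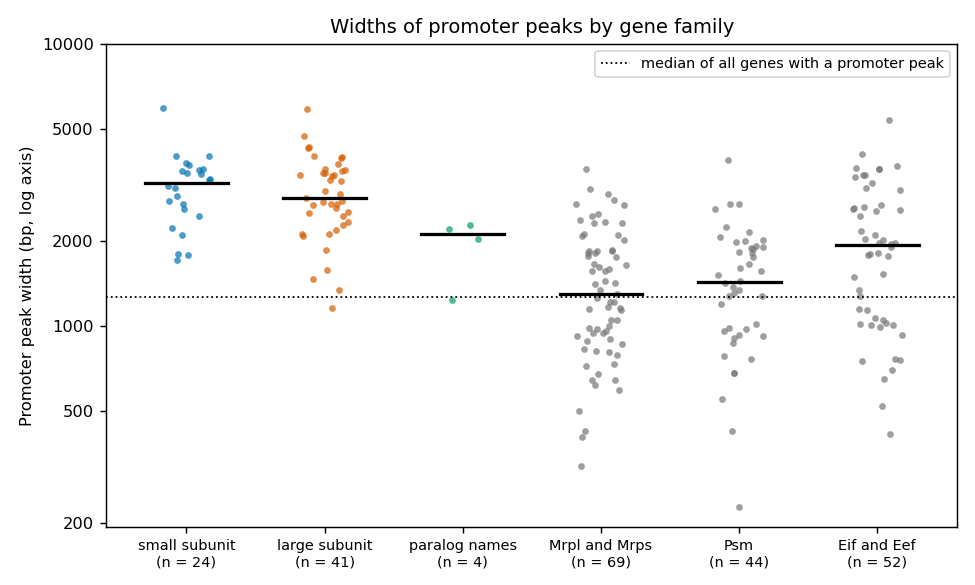
Width of the promoter peak in bp on a log axis, 1 point per gene (spread sideways at random), for ribosomal protein genes of the small subunit (24), large subunit (41) and paralog names (4) and for 3 gene families of like size, with the median of each drawn as a line and the 1269 bp of all marked genes dotted. Medians of the small and large subunit genes are 3211.5 and 2833 bp, above those of the mitochondrial ribosome (1295 bp), proteasome (1430.5 bp) and Eif and Eef (1931 bp) genes.

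The widest promoter peaks were those of *Rps2* (5922 bp), *Rpl35* (5899 bp), *Rpl4* (4734 bp), *Rpl37* (4317 bp) and *Rpl13* (4291 bp). *Rpl23* (5606 bp) and *Rps19* (5156 bp) had peaks wider than that of *Rpl4*, but with midpoints beyond 1 kb of a TSS. The peak of *Rps2*, a small subunit protein near the mRNA entry site, ran from 1549 bp upstream to 4372 bp downstream of its TSS, covered 89.6% of the gene and reached past its 3′ end. At *Rpl4*, a core protein of the large subunit that hosts 5 small nucleolar RNAs (snoRNAs) in its introns, the peak ran from 2084 bp upstream to 2649 bp downstream and also held the start of *Zwilch*, a kinetochore gene. *Rpl35* differed from the other 4 in that its peak lay mostly upstream, with 3762 bp before the TSS and 2136 bp after it. Another gene, *Arpc5l*, starts within 1 kb of a TSS of *Rpl35*. The narrowest promoter peaks were those of *Rplp0* (1155 bp), *Rpl22l1* (1234 bp), *Rpl36a* (1341 bp), *Rpl3* (1466 bp) and *Rpl11* (1577 bp). All 5 encode large subunit proteins or a paralog of one.

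Midpoints lay downstream of the principal TSS in 65 of 69 marked members (94.2%), against 67.2% of all genes with a promoter peak. All 24 marked small subunit genes were among them. The same 65 midpoints lay inside the gene, 30 in an intron, 9 in an exon of the principal transcript and 26 in an exon of another transcript. The 4 midpoints farther upstream belonged to *Rpl3* (-8850.5 bp from the principal TSS), *Rpl35* (-813 bp), *Rpl36al* (-147 bp) and *Rpl10* (-90.5 bp). Among the farthest downstream were those of *Rpl18* (3206 bp), *Rps10* (2133.5 bp), *Rps2* (1411.5 bp) and *Rpl6* (1188 bp). *Rpl3*, which shapes the peptidyl transferase centre, was counted only through a distant annotated start beside *Syngr1*. The nearest peak edge to its principal TSS was 6039 bp away, so the main start of *Rpl3* was unmarked too.

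**Figure D2:**
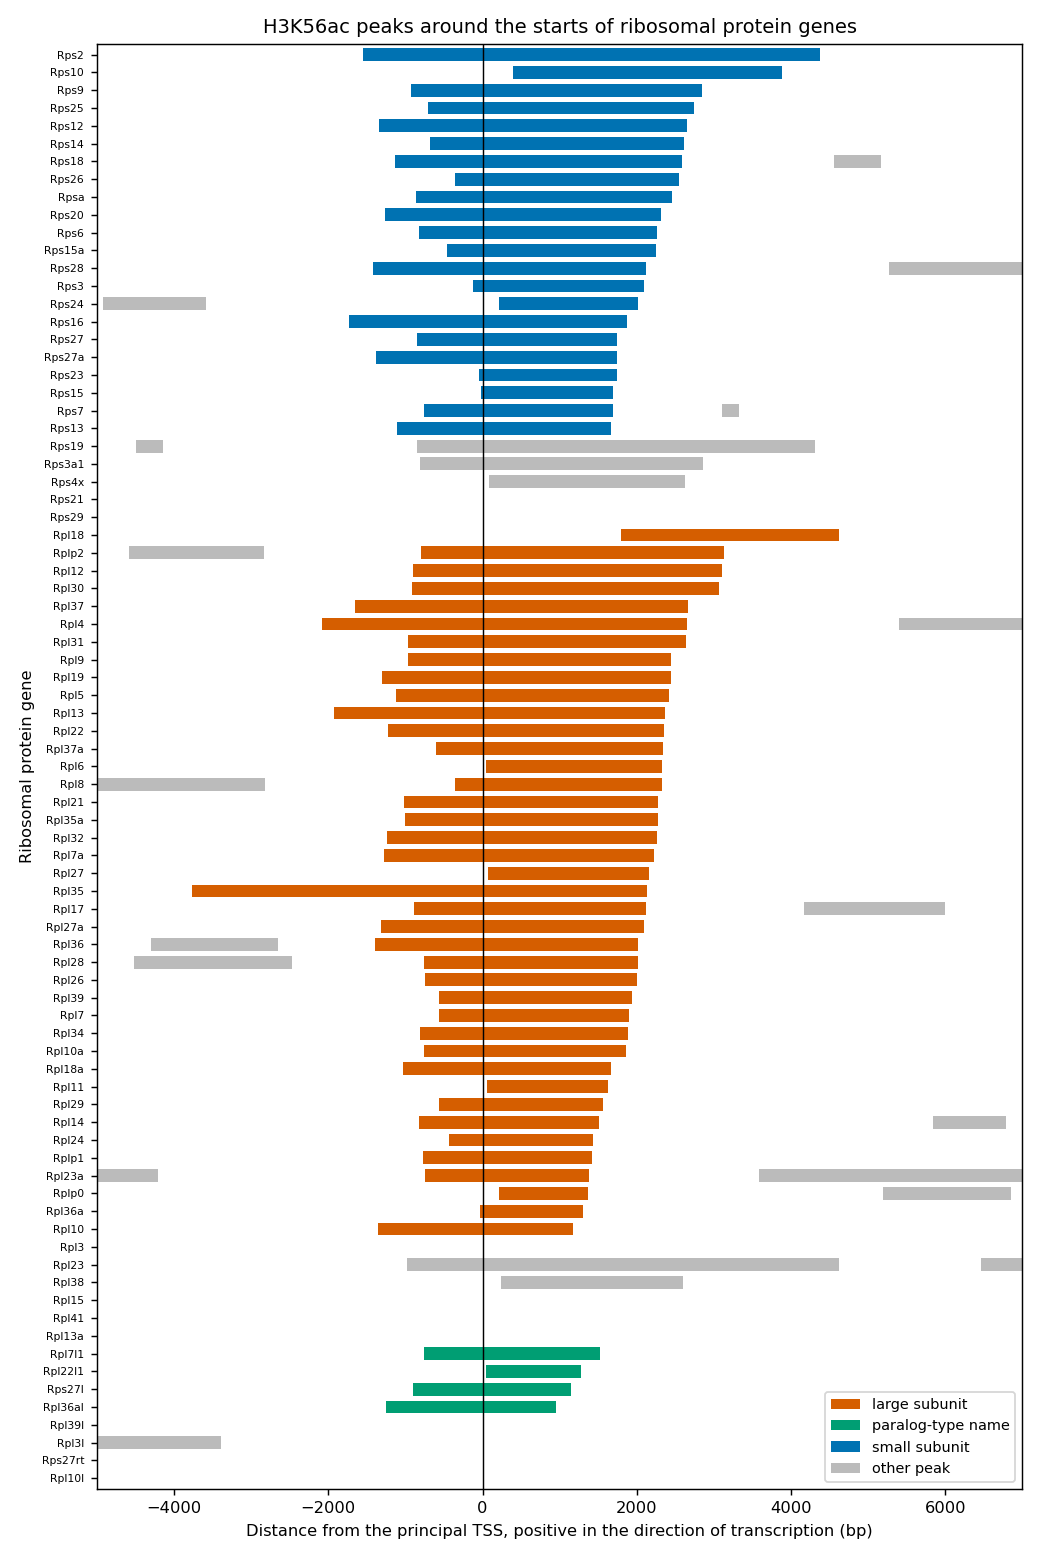
Peaks around the principal TSS of 81 ribosomal protein genes, 1 row per gene, with the distance from the TSS in bp and transcription to the right. Coloured bars are promoter peaks by subunit class, and over all marked members they begin at a median of 842 bp before the TSS and end at a median of 2136 bp after it, while grey bars are other peaks, and the peak of *Rpl3* lies beyond the left edge.

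The reach of the peaks was uneven on the sides of the TSS. They began a median of 842 bp upstream and ended a median of 2136 bp downstream, against 624 bp and 994 bp over all genes with a promoter peak. A reach of at least 2 kb downstream was found in 43 of 69 marked members (62.3%), in 8.53% of all marked genes and in 8.84% of marked CpG-rich genes of 1 to 10 kb in length. On the upstream side members were closer to other genes, since 24 of 69 (34.8%) reached 1 kb or more, against 28.0% of all marked genes. Among the 59 members whose peak spanned the principal TSS, the quartiles of the downstream end were 1739 and 2448.5 bp. In 9 members the whole promoter peak lay downstream of the principal TSS, among them with a gap of 39 bp at *Rpl22l1*, 46 bp at *Rpl6*, 56 bp at *Rpl11*, 72 bp at *Rpl27*, 207 bp at *Rplp0*, 210 bp at *Rps24*, 389 bp at *Rps10* and 1790 bp at *Rpl18*. At *Rpl18* the peak was counted through another annotated start, 489 bp from its midpoint, and *Sphk2* also starts within 1 kb of that midpoint. No peak base lay within 1 kb of the principal TSS of *Rpl18*. *Rps24* had a further peak with its near edge 3587 bp upstream of the principal TSS. It just reached the outermost start of *Rps24*, 3593 bp from the principal TSS, and ran on upstream. Another gene, *Polr3a*, starts within 1 kb of a TSS of *Rps24*.

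Read position by position, the share of all 85 members covered by a peak was 27.1% at 1 kb upstream of the principal TSS, 63.5% at 500 bp upstream and 72.9% at the TSS. It was highest at 400 bp downstream with 84.7% and was still 83.5% at 1 kb downstream. At 2 kb downstream 48 of 85 members (56.5%) were covered, against 3.11% of all protein-coding genes and 4.96% of CpG-rich ones.

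**Figure D3:**
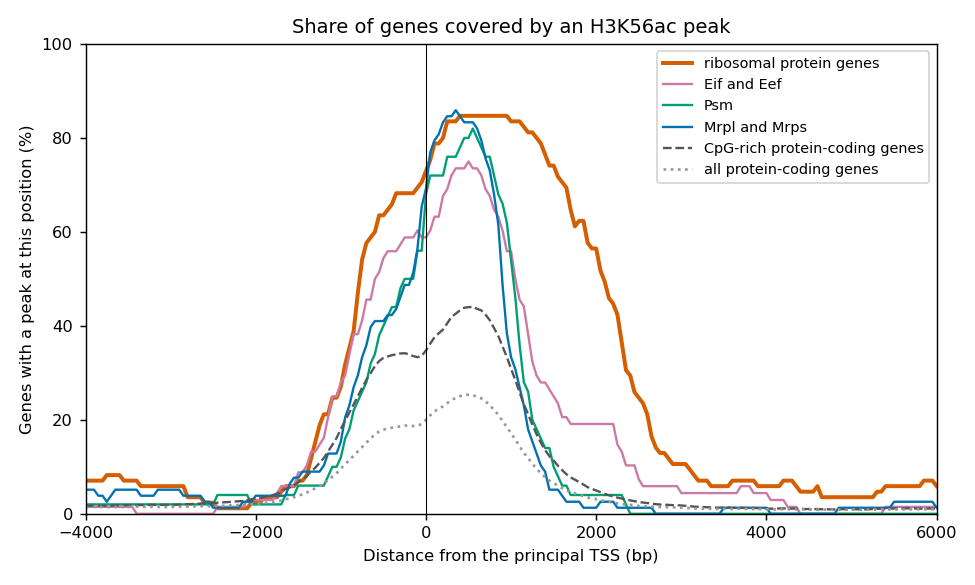
Percent of genes covered by a peak at each distance from the principal TSS (bp, transcription to the right), 1 line per gene group. Ribosomal protein genes peak at 84.7% at 400 bp and stay at 56.5% at 2 kb, where mitochondrial ribosomal protein, proteasome, and Eif and Eef genes are at 1.28%, 4% and 19.1%.

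The peaks covered much of these genes, which are short. The median member was 3289 bp long, against 17425 bp for all protein-coding genes, and a median of 64.6% of a marked member lay under peaks. Over all marked genes that median was 4.29%, and over marked CpG-rich genes of 1 to 10 kb it was 18.7%. At least 50% of the gene was covered in 52 of 69 marked members (75.4%), against 12.8% of those CpG-rich genes. CpG-rich genes of 1 to 10 kb had a median length of 5268.5 bp, longer than the members, and the share covered depends on length. The whole gene was covered in 9 members, among them *Rps12*, *Rps15*, *Rps26*, *Rps27*, *Rpl8*, *Rpl36*, *Rpl37* and *Rplp1*. In 10 members the peak ran past the 3′ end, *Rps2* among them. At the other extreme, the peak covered 6.27% of *Rpl11*, whose annotated gene is 25164 bp long, and 10.5% of *Rps14*, annotated over 31449 bp. Width was hardly related to gene length across the 69 members (Spearman rho 0.10) or to the CpG ratio at the start (rho 0.08), given as descriptions over genes from 1 peak set.

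Other families that serve protein synthesis and turnover give the background for these values. Mitochondrial ribosomal protein genes (Mrpl and Mrps) had a promoter peak in 69 of 78 cases (88.5%, 79.5 to 93.8), proteasome genes (Psm) in 44 of 50 (88.0%, 76.2 to 94.4) and genes with names in Eif or Eef in 52 of 68 (76.5%, 65.1 to 85.0). The last group was taken by name and holds, beside translation factors, some of their kinases, methyltransferases and binding proteins, such as *Eif2ak1*, *Eef2kmt* and *Eif4ebp2*. The proteasome group was likewise taken by name alone, so not every gene in it, such as *Psmc3ip*, encodes a subunit. The intervals of these families overlap that of the ribosomal protein genes, counted over any annotated TSS. With the principal TSS only, the shares were 88.5% (79.5 to 93.8), 84% (71.5 to 91.7) and 75% (63.6 to 83.8), all above the 64.7% (54.1 to 74.0) of the ribosomal protein genes, and the interval of the mitochondrial genes did not overlap theirs. These shares count midpoints, and a wide peak can cover the TSS with its midpoint beyond 1 kb. The principal TSS lay inside a peak in 69.2% (58.3 to 78.4), 68% (54.2 to 79.2) and 58.8% (47.0 to 69.7) of these families. For the ribosomal protein genes it was 72.9% (62.7 to 81.2), and these intervals overlap. The median widths of the families were 1295 bp (1047 to 1649), 1430.5 bp (1197 to 1817) and 1931 bp (1339 to 2462), with each interval below the 2610 to 3413 bp of the cytosolic genes. A peak of 3 kb or more was found at 2 of the 69 marked mitochondrial ribosomal genes, 1 of the 44 marked proteasome genes and 12 of the 52 marked Eif and Eef genes. A reach of 2 kb downstream was found in 1.45%, 2.27% and 21.2% of them. CpG-rich genes of 1 to 10 kb with a promoter peak had a median width of 1607.5 bp (1548 to 1678).

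Of 36 genes for ribosome assembly, 34 had a promoter peak (94.4%, 81.9 to 98.5), with a median width of 2145.5 bp (1460 to 2549) and a median midpoint at 192.75 bp. They include *Nolc1*, a nucleolar chaperone (6409 bp), *Nop56*, a core protein of box C/D particles (4080 bp), *Ncl* for nucleolin (3780 bp) and *Npm1* for nucleophosmin (3197 bp). *Heatr1* had no peak base within 1 kb, and *Wdr43* had one without a midpoint. Ribosomal proteins whose names do not start with Rpl or Rps were marked in 2 of 3 cases. *Rack1*, a scaffold on the small subunit, had a peak of 3315 bp with its midpoint at 665 bp, near the members' medians. *Fau*, whose product yields a small subunit protein, had no peak base within 1 kb.

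Members with particular roles were spread over this range. The 3 genes of the P stalk, which recruits elongation factors, were all marked, with widths of 1155 bp at *Rplp0*, 2184 bp at *Rplp1* and 3931 bp at *Rplp2*. *Rpsa*, also known as the laminin receptor, had a peak of 3318 bp and *Rps27a*, the small subunit's ubiquitin fusion, one of 3126 bp. Of 11 genes mutated in Diamond-Blackfan anaemia, an inherited failure of red cell production, 9 had a promoter peak, and *Rps19* had a wide peak whose midpoint missed the limit. Among the 11 genes listed for this disease, only *Rpl15* had no peak base within 1 kb. The median midpoint of the 9 was at 844 bp (631.5 to 1213), and the promoter peaks of *Rps10*, *Rps24* and *Rpl11* were among those that lay wholly downstream of the principal TSS. Of 5 genes known from mouse mutants (*Rpl24*, *Rpl38*, *Rps6*, *Rps19* and *Rps20*), 3 had a promoter peak and all 5 a peak base within 1 kb. On the X chromosome *Rpl10*, *Rpl36a* and *Rpl39* were marked, with widths of 2536, 1341 and 2514 bp, and the peak of *Rps4x* began 79 bp downstream of its principal TSS.

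Of the members 30 (35.3%) hosted a snoRNA inside the gene, against 1.27% of all protein-coding genes. These hosts were marked in 26 of 30 cases (86.7%, 70.3 to 94.7) with a median width of 3499 bp (2779 to 3985), and the other members in 43 of 55 (78.2%, 65.6 to 87.1) with a median of 2695 bp (2286 to 3082). Both pairs of intervals overlap. Another gene started within 1 kb of 19 members (22.4%), against 14.6% of all protein-coding genes and 23.1% of CpG-rich ones. Of these 19 members 18 were marked, with a median width of 3439.5 bp (2833 to 3721). The 66 members without such a neighbour were marked in 51 cases (77.3%, 65.8 to 85.7), with a median width of 2705 bp (2452 to 3082). In 12 members another gene also started within 1 kb of the midpoint of the promoter peak, for example *Trappc4* at *Rps25*, *Lias* at *Rpl9* and *Med22* at *Rpl7a*. Starts under a wide peak but farther from its midpoint are not in this count.

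The 16 members without a promoter peak fall into 2 kinds. In 5 of them a peak lay at the gene, but its midpoint was beyond 1 kb of every TSS. These were *Rps3a1* (3662 bp wide, midpoint 1024.5 bp from the nearest TSS), *Rps19* (5156 bp wide, 1183.5 bp), *Rps4x* (2551 bp, 1296 bp), *Rpl38* (2350 bp, 1316.5 bp) and *Rpl23* (5606 bp, 1659.5 bp). The principal TSS of *Rps3a1*, *Rps19* and *Rpl23* lay inside the peak, and at *Rpl38*, whose loss in mice alters the axial skeleton, the peak began 244 bp downstream of it. Just inside the limit were *Rps3* with 878.5 bp, *Rps10* with 842.5 bp and *Rpl35* with 813 bp. The other 11 had no peak base at this distance.

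Of the 11, 4 carried paralog-type names. *Rpl3l*, the striated muscle form of *Rpl3*, lies on chromosome 17 with its start 7757 bp from that of *Rps2*. The widest peak of all members and an unmarked paralog were thus neighbours, and the nearest peak midpoint to a TSS of *Rpl3l* was 3692 bp away. *Rpl10l* and *Rpl39l*, testis forms of *Rpl10* and *Rpl39*, had their nearest peak midpoints at 660408.5 and 23167 bp, and *Rps27rt* at 25146 bp. Of these 4 genes 1 was CpG-rich, *Rpl10l*, and 2 had a single exon, *Rpl10l* and *Rps27rt*. The 4 marked paralogs were *Rpl7l1*, *Rpl22l1*, *Rpl36al* and *Rps27l*, with widths of 2286, 1234, 2209 and 2038 bp.

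The 7 unmarked genes of the common ribosome lay within the range of marked members in the CpG content of their starts. All 7 were CpG-rich, with CpG ratios (observed over expected within 500 bp of the principal TSS) of 0.718 at *Rpl41* to 0.907 at *Rps29* in the 5 shown above, within the 0.553 to 1.03 of marked members. The share of 75-base windows within 1 kb of the TSS found only once in the genome, which matters as only reads with a single location were kept, was 84.9% at *Rps29*, 93.5% at *Rpl15*, 95.9% at *Rpl41* and 100% at *Rps21* and *Rpl13a*. Marked members ranged from 89.0 to 100%, so of these 5 genes *Rps29* alone lay below them. Only exact copies of a window were counted, so near-identical copies elsewhere in the genome do not lower this share. The 5 had 3 to 8 exons and were 1069 to 3569 bp long, and *Rpl13a* hosted 4 snoRNAs.

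**Figure D4:**
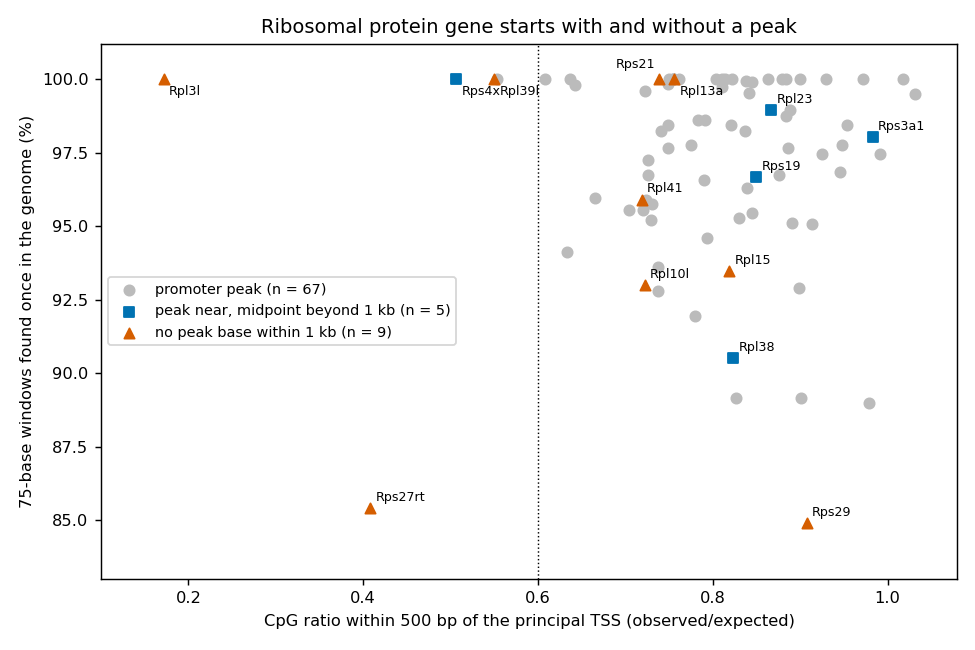
CpG ratio within 500 bp of the principal TSS (x axis) against the percent of 75-base windows within 1 kb found once in the genome (y axis), 1 point for each of 81 ribosomal protein genes, by peak status (67 with a promoter peak, 5 with a peak near, 9 without a peak base within 1 kb). The unmarked *Rps21*, *Rpl13a*, *Rpl15* and *Rpl41* lie among the marked genes, *Rps29* (84.9%) lies below them, and 3 of the 4 unmarked paralogs lie left of the dotted line at 0.6.

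Their surroundings were not empty either, with exceptions. The nearest peak midpoint was 9521 bp from a TSS at *Rps29*, 15380.5 bp at *Rps21*, 22099.5 bp at *Rpl13a* and 23593.5 bp at *Rpl41*. Of these, *Rpl15* stood far from any peak, with 383611.5 bp. Within 50 kb of the 7 starts there were 16 other CpG-rich genes, of which 12 had a promoter peak. Counted once per member, and members themselves included, 14 of 20 CpG-rich neighbours of these 7 (70%) had one, and 92 of 143 (64.3%) of those around members with a peak base within 1 kb. The CpG-rich starts of *Pih1d1* and *Aldh16a1* upstream of *Rpl13a* were marked. *Rpl15* shares its start region with *Nkiras1*, 69 bp away, which was also unmarked, as was *Nr1d2* farther downstream.

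As a check of the cell type, all 14 pluripotency genes examined (*Pou5f1*, *Nanog*, *Sox2* and others) were reached by a peak within 1 kb of their starts, against 35.7% of all protein-coding genes. A midpoint lay there in 6 of them (42.9%), against 33.9% of all genes. None of 14 fibroblast genes that would mark feeder cells had either (0 to 21.5%). Only 2 of these fibroblast genes (14.3%) had a CpG-rich 5′ end, against 4 of the pluripotency genes (28.6%) and 45.9% of all genes. The 6 pluripotency genes with a promoter peak had a median width of 4412.5 bp (2824 to 6689), so wide peaks were not limited to ribosomal protein genes.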

How the data were processed

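H3K56ac ChIP-seq libraries of V6.5 mESCs (2 Scramble, 2 Sirt6 KD, 1 input each) were grouped by their titles. Trimming by the authors used Trim Galore and alignment to mm10 used bowtie, with reads of a single reportable location kept. Picard took out duplicates, MACS2 gave the peaks, ENCODE blacklisted regions were dropped, and GenomicRanges joined overlapping peaks. The deposited merged peaks hold positions and a score that is 0 throughout, so depth and strength are unknown. No neighbouring peaks lie closer than 1000 bp, so a wide peak may join separate intervals. Single-location alignment lowers coverage in repeated sequence. The authors' counts per peak and tests of the groups are not analysed here.

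Every transcript of a protein-coding gene in GENCODE M21 on GRCm38 gave a TSS. The principal TSS followed APPRIS rank, transcript support level and outermost position. Where several peaks qualified, the one with its midpoint nearest the principal TSS was used. CpG-rich means an observed to expected CpG ratio of at least 0.6 within 500 bp of the 5′ end. Sequences were read from the RefSeq copy of GRCm38, and none from chromosome 18 is shown. Members, lists (ribosome assembly, P stalk, other-named ribosomal proteins, anaemia, mouse mutant, pluripotency and fibroblast genes) and alternatives were chosen with earlier results of these data known, so no test is given. Shares carry Wilson and medians binomial intervals at 95%. Genes named in full were those without a promoter peak, the 5 widest and narrowest peaks, the 5 farthest midpoints each way, X-linked and paralog names, *Rpsa*, *Rps27a* and the lists; others serve as examples. Values of a few genes enter the counts and medians but are not reported here, and 4 of them are left out of the plots of single members. Alternatives covered the TSS set, distance, midpoint or any base, width, paralogs, shared peaks and uniqueness. Gene counting was tested on simulated data. Calculations used Python 3.11.15, numpy 2.4.6, scipy 1.17.1, numba 0.67.0 and matplotlib 3.10.9.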

Additional observations from a re-analysis of the deposited data

How the results depend on the processing

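Of 34 alternatives, 28 left the value within the 95% interval of the value reported and 6 moved it outside; none turned the direction of an offset. The share of ribosomal protein genes with a promoter peak was 70.6% with GENCODE basic transcripts, 63.5% with the 5′ end of the gene as the only TSS, 64.7% with the principal TSS only and 62.4% with a limit of 500 bp, in place of 81.2%. The median offset of 632 bp was 227.5 bp when taken from the nearest annotated TSS. The share of 72.9% with the principal TSS inside a peak was 83.5% for any annotated TSS. Of these 6 values, only the share with the principal TSS has a counterpart over all protein-coding genes (30.4%). The others were taken over members alone, so under those settings members were not compared with other genes. The median width kept between 2705 and 3013 bp in all of its alternatives. Some of the 28 could not differ or repeat each other. Leaving out members under 80% unique removed none. Asking for peaks at least 500 bp wide could not change the share, as the narrowest promoter peak was 1155 bp. A limit of 3 kb and any base within 1 kb gave the same share (87.1%), median width (2921.5 bp) and median offset (650.5 bp). RefSeq TSS and leaving out members with another gene starting within 1 kb were chosen after seeing the data; RefSeq starts were matched for 65 of 85 members and gave 72.3%.

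No paired analysis was possible because no library has values of its own in this peak set. Leaving out a library and a stricter peak score were not run, as the score is 0 throughout and the share of 81.2% rests on 1 set.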
